A study of Mus musculus with 12 samples.

Results

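The expression of 29 genes of the DNA damage response and of class switch repair was followed in splenic B cells of mice with a double knockout (DKO) of the RNA-binding proteins hnRNP A1 and hnRNP A2B1, and of wild-type (WT) mice. The genes were chosen by symbol, and all 29 were found among the 55349 genes held in both the untreated and the stimulated table. The groups were B cells of DKO spleens stimulated with anti-IgM at 10 µg/mL and anti-CD40 at 1 µg/mL for 48 hours (2 libraries), WT cells stimulated in the same way (2 libraries), untreated DKO cells (3 libraries) and untreated WT cells (3 libraries), and 2 additional untreated WT libraries served in an alternative only. The DKO was made with Cre and loxP, and the sources used here name neither the driver of Cre nor the strain, sex and age of the mice. Cells of both genotypes were purified by negative selection with CD43 beads, and poly(A) RNA was sequenced. Untreated cells were lysed after isolation, so stimulation, the hours in culture and the separate tables of both states cannot be told apart.

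Class switching starts with uracils that form from cytosines in the switch regions. Uracil glycosylase and the abasic-site endonuclease, or the mismatch repair proteins, then turn these uracils into breaks, and non-homologous end joining reconnects the broken switch regions. Break-response proteins hold and protect the ends, while the replication stress checkpoint and homologous recombination mainly serve the genome of the dividing cell.

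The 12 libraries held between 15090953 and 21731893 counts each. Hnrnpa1 lay at 14.6 and 13.8% of the stimulated WT mean in the stimulated DKO libraries, and at 10.6, 27.4 and 13.6% of the untreated WT mean in the untreated ones. Hnrnpa2b1 lay between 17.4 and 32.3% of the WT mean in the same 5 libraries. The 7 B cell markers had counts in every library and summed to 4319 to 5191 CPM (counts scaled by library size and TMM factor over the 10 libraries, as everywhere below) in stimulated DKO and 5748 to 5975 CPM in stimulated WT cells, and to 2823 to 3275 CPM in untreated DKO and 3355 to 3744 CPM in untreated WT cells. By comparison, the 8 T cell markers summed to at most 189.6 CPM in these 10 libraries, in stimulated DKO number 1, where Lck alone had 187 CPM. The 8 monocyte and macrophage markers summed to at most 73.2 CPM, the 6 erythroid markers to at most 30.8 CPM and the 6 neutrophil markers to at most 7.64 CPM. The 5 plasma cell markers summed to 396 to 671 CPM, with 365 to 658 CPM from Irf4 alone. By Xist and Y-linked counts, 2 of the 10 libraries, untreated DKO number 1 and untreated WT number 2, came from female cells. Stimulated DKO number 1 stood apart from the other stimulated libraries by gene length, as given beside the stimulated comparison. Of the stimulated WT libraries 1 carries a number that the labels do not hold and is called the unnumbered library. Because nothing in the labels says that replicates came from separate animals, p-values measure the spread between these libraries. In bulk RNA, fewer cells that express a gene and less RNA per cell cannot be told apart.

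Levels per length, as the deposited FPKM (a level scaled by library and by length of exon), placed Parp1 first among the 29 genes in each of the 4 groups. Parp1, which senses strand breaks, had 120.5 ± 1.05 FPKM in stimulated DKO cells (SD, n = 2) and 118 FPKM in the numbered stimulated WT library, and 97.4 ± 9.02 FPKM in untreated DKO and 90.5 ± 3.82 FPKM in untreated WT cells (SD, n = 3 each). Apex1 came next with 67.6 ± 2.59 FPKM in untreated DKO and 64.5 ± 3.95 FPKM in untreated WT cells. Msh6, at 34.3 ± 3.21 FPKM, and Xrcc5, at 35.1 ± 1.70 FPKM, followed in untreated WT cells and did not differ beyond their spread. At the low end stood partners of the ligation step. In untreated WT cells Lig4 had 2.52 ± 0.0872 FPKM and Xrcc4 2.54 ± 0.305 FPKM, 2 neighbours within their spread, followed by Palb2 at 2.98 ± 0.487 FPKM and Nhej1 at 3.86 ± 0.168 FPKM. Nhej1 was the lowest of all 29 in untreated DKO cells, at 1.83 ± 0.274 FPKM.

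Between untreated DKO and WT cells, 1 end-joining gene was lower and 3 checkpoint or break-sensing genes were higher. Nhej1 was at 0.50 times its WT level, and Chek1, Nbn and Atr were between 1.23 and 1.55 times their WT level. These 4 of 29 genes are 13.8%, beside 19.5% of all 13561 genes tested (edgeR quasi-likelihood test, Benjamini-Hochberg adjusted p under 0.05), so the share called was not above the background. By direction, 3 of 29 were higher, beside 8.81% of all genes, and 1 was lower, beside 10.6%. The median log2 fold change of the 29 was 0.11, beside -0.01 over all genes tested, with 22 of 29 above 0. The groups did not overlap in CPM for 10 of the 29 genes, beside 39.5% of all genes (7 and 39.2% with scaling over the 6 untreated libraries alone, where Ung, Msh6 and Parp1 overlapped). Fold changes are log2 of DKO over WT with a standard error.

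**Figure D1:**
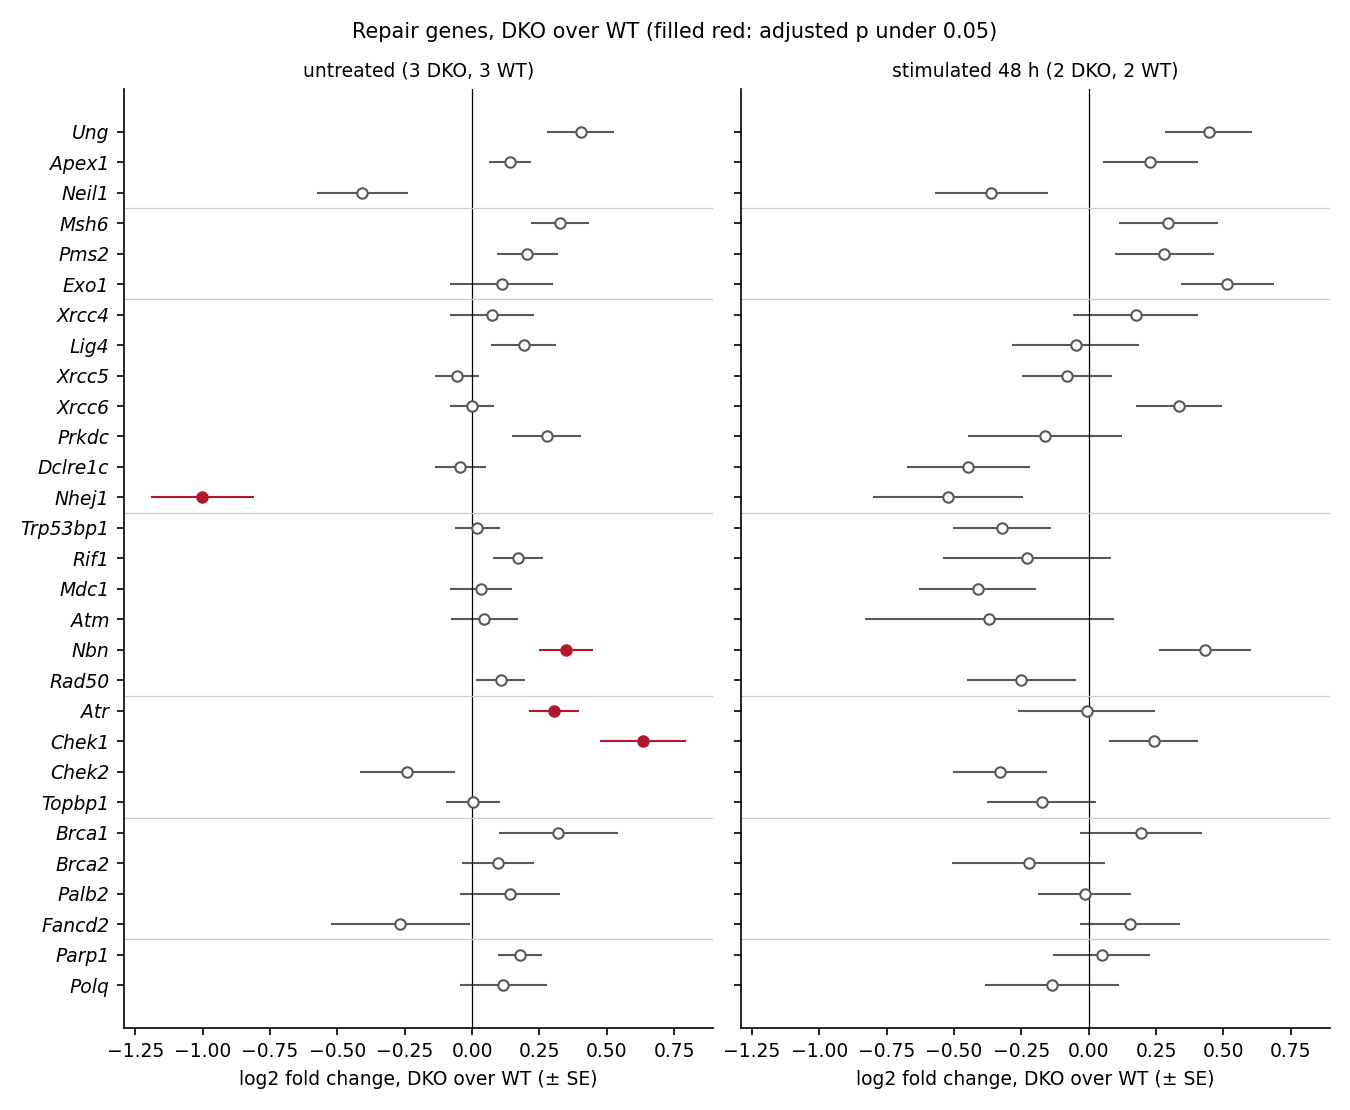
Log2 fold change of DKO over WT cells (x axis, ± SE) for the 29 genes (y axis, grouped by role), in untreated cells (left, 3 DKO and 3 WT libraries) and stimulated cells (right, 2 DKO and 2 WT libraries). Filled red points passed an adjusted p of 0.05: 4 of 29 in untreated cells, of which Nhej1 lies to the left of 0, and 0 of 29 in stimulated cells.

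Nhej1, the factor that bridges broken ends for ligation, had 3.16, 3.28 and 2.46 CPM in untreated DKO cells, against 6.08, 5.67 and 5.95 CPM in untreated WT cells. All 3 DKO libraries lay below all 3 WT libraries, on 49, 52 and 37 counts in DKO and 121, 95 and 121 counts in WT cells. The log2 fold change was -1.001 ± 0.19 (edgeR adjusted p = 0.00961), and it passed the threshold whichever of the 6 libraries was left out. When WT cells included the 2 additional libraries, none of the 29 genes passed, beside 319 of all genes. Nhej1 then had a log2 fold change of -0.37 (edgeR adjusted p = 0.78), and its values in the additional libraries are of another gene model. The other 6 end-joining genes did not pass: Xrcc4 (scaffold of the ligase) had a log2 fold change of 0.08 ± 0.16, Lig4 (the ligase itself) of 0.19 ± 0.12, Xrcc5 and Xrcc6 (both Ku subunits) of -0.05 ± 0.08 and less than 0.01, Prkdc (the kinase that Ku recruits) of 0.28 ± 0.13, and Dclre1c (the nuclease Artemis) of -0.04 ± 0.09.

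Chek1, the effector kinase of the replication stress checkpoint, had 74.7, 108 and 99.3 CPM in untreated DKO cells, against 71.5, 51.2 and 57.5 CPM in untreated WT cells (0.64 ± 0.16, edgeR adjusted p = 0.0255). Atr, the kinase above it, had 158, 139 and 171 CPM in untreated DKO and 119, 137 and 120.0 CPM in untreated WT cells (0.30 ± 0.09, edgeR adjusted p = 0.0483). Nbn, the subunit through which the MRN break sensor binds ATM, had 53.7, 63.2 and 59.2 CPM in untreated DKO and 50.2, 42.0 and 44.8 CPM in untreated WT cells (0.35 ± 0.10, edgeR adjusted p = 0.0393). For each of the 3 genes every DKO library was above every WT library. These calls rested on single libraries more than that of Nhej1. Without DKO number 3 all 3 were lost (edgeR adjusted p between 0.0884 and 0.151), and likewise without WT number 3 (0.0960 to 0.187). Chek1 and Nbn also lost their call without DKO number 2 (0.0768 and 0.121), Nbn without WT number 2 (0.0824), and Atr without DKO number 1 (0.0886) or WT number 1 (0.142). In 1 fit over 10 libraries Atr lost its call (edgeR adjusted p = 0.211), and the other 2 genes passed. With the additional libraries counted as WT, the log2 fold change was 0.12 for Chek1, 0.14 for Atr and 0.42 for Nbn. None of these passed (edgeR adjusted p = 0.83, 0.62 and 0.11). Chek2, the effector kinase of ATM, had a log2 fold change of -0.24 ± 0.18 and Topbp1, the activator of ATR, one of 0.00 ± 0.10, and neither passed.

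Next in rank came a pair of genes that act on uracil in switch regions. Ung, the glycosylase that removes it, had 79.4, 97.9 and 102 CPM in untreated DKO cells, against 79.2, 61.4 and 69.1 CPM in untreated WT cells (0.40 ± 0.12, edgeR adjusted p = 0.051). Msh6, which takes part in recognising the mismatched base, had 156, 194 and 195 CPM in untreated DKO and 155, 130.1 and 146 CPM in untreated WT cells (0.33 ± 0.11, edgeR adjusted p = 0.061). Untreated DKO number 1 was the lowest of the 3 DKO libraries in both genes and WT number 2 the lowest of the WT libraries, and in each gene the lowest DKO library lay just above the highest WT library. Both genes passed in DESeq2 (adjusted p = 0.0196 for Ung and 0.0326 for Msh6) and without a filter on low counts, and Ung also with RLE scaling and in 1 fit over 10 libraries (edgeR adjusted p = 0.0474 and 0.0487). Apex1, the endonuclease that cuts the abasic site Ung leaves, had a log2 fold change of 0.14 ± 0.08, and Neil1, a glycosylase of oxidised bases, one of -0.41 ± 0.17. Pms2 (mismatch repair endonuclease) had 0.21 ± 0.11 and Exo1 (the exonuclease that widens the gap) 0.11 ± 0.19. None of these 4 passed.

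The remaining 11 genes did not pass in untreated cells. Among the break-response genes, Trp53bp1 and Rif1, which protect ends from resection, had log2 fold changes of 0.02 ± 0.08 and 0.17 ± 0.09. Mdc1, the adaptor on damaged chromatin, had 0.03 ± 0.11, the kinase gene Atm 0.05 ± 0.12 and Rad50, the partner of Nbn, 0.11 ± 0.09. In the recombination group Brca1 had 0.32 ± 0.22, Brca2 0.10 ± 0.13, Palb2, which links them, 0.14 ± 0.19 and Fancd2, the crosslink repair protein, -0.27 ± 0.26. Parp1 had 0.18 ± 0.08 and Polq, the polymerase of theta-mediated end joining, 0.12 ± 0.16. Standard errors over the 29 genes ran from 0.08 to 0.26.

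Levels of proliferation genes differed between untreated libraries within each genotype. The 17 proliferation markers summed to 2821, 3895 and 4021 CPM in the untreated DKO libraries, against 4062, 2765 and 3485 CPM in the untreated WT libraries, and the sums overlapped. Of the 17 markers 4 passed between genotypes (23.5%, beside 19.5% of all genes): Mcm6, a subunit of the replicative helicase, was higher in DKO cells (0.48 ± 0.13), and the mitotic kinase gene Plk1 (-1.41 ± 0.32), the cyclin gene Ccnb1 (-1.09 ± 0.25) and Tyms, which makes thymidylate (-0.62 ± 0.18), were lower. The median log2 fold change of the 17 was -0.31, with 11 of 17 below 0. The lowest sum in each genotype belonged to the library from female cells. In the same pair of libraries Brca1 was lowest of its genotype, with 45.6, 73.4 and 80.9 CPM in untreated DKO and 65.2, 41.1 and 52.3 CPM in untreated WT cells, and so was Fancd2, with 22.1, 40.9 and 46.3 CPM in untreated DKO and 52.5, 32.8 and 44.9 CPM in untreated WT cells. Without these 2 libraries 10 of 29 genes passed, 8 higher in DKO cells (Atr, Brca1, Chek1, Msh6, Nbn, Prkdc, Rif1 and Ung) and 2 lower (Neil1 and Nhej1), or 34.5%, beside 24.6% of all genes in that fit (11.5% higher and 13.1% lower). The part of sex or of proliferation in the result over all 6 libraries was not tested beyond that comparison.

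**Figure D2:**
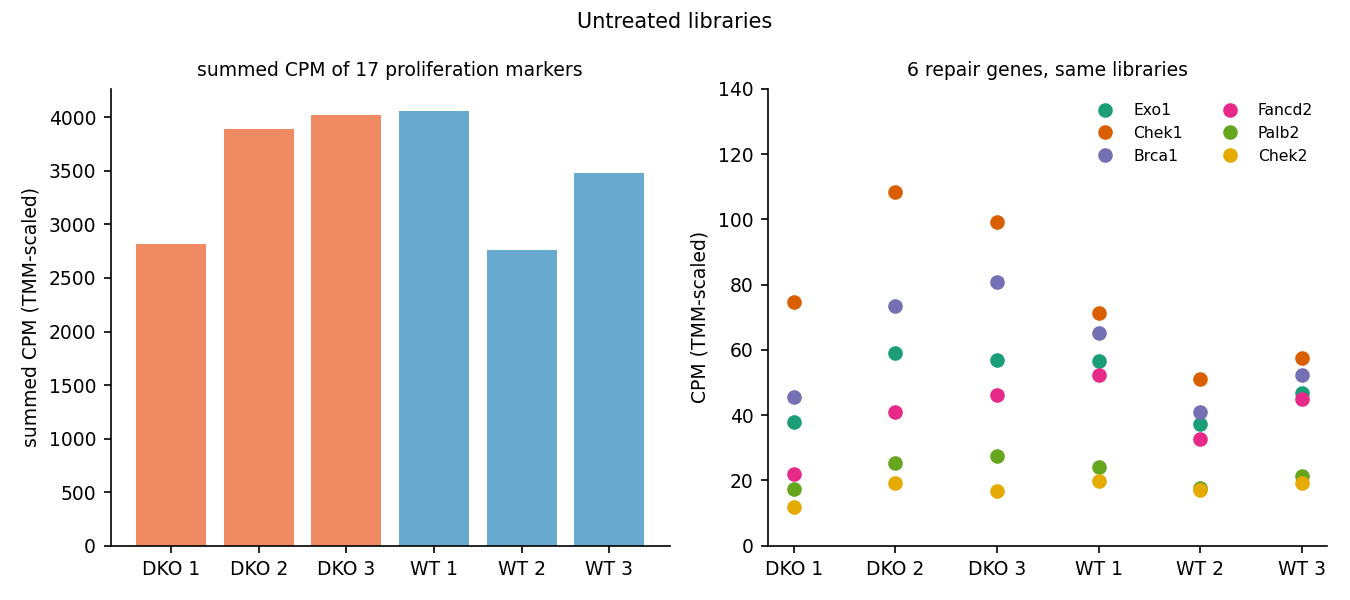
Untreated libraries, DKO numbers 1 to 3 and then WT numbers 1 to 3. Left, summed CPM of 17 proliferation markers per library, and right, CPM of 6 repair genes per library (1 colour a gene). DKO number 1 and WT number 2, the libraries from female cells, have the lowest marker sum of their genotype, 2821 and 2765 CPM.

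Between stimulated DKO and WT cells none of the 29 genes passed, beside 11.3% of all 14430 genes tested (5.09% higher and 6.17% lower, edgeR). DESeq2 also called none of the 29. The smallest edgeR adjusted p was 0.0829, of Exo1, and 3 genes (Exo1, Ung and Nbn) had an unadjusted p under 0.05. Log2 fold changes ran from -0.52 (Nhej1) to 0.51 (Exo1), with a median over the 29 of -0.05, beside -0.03 over all genes. Stimulated DKO and WT cells did not overlap for 14 of 29 genes, beside 60.5% of all genes. With 2 libraries a group, standard errors ran from 0.16 to 0.46, against 0.08 to 0.26 in untreated cells.

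Exo1 had 84.3 and 88.9 CPM in stimulated DKO cells, against 63.8 and 53.9 CPM in stimulated WT cells (0.51 ± 0.17, edgeR adjusted p = 0.0829). Ung had 67.9 and 58.5 CPM in stimulated DKO and 46.6 and 43.1 CPM in stimulated WT cells (0.45 ± 0.16, edgeR adjusted p = 0.105). Nbn had 75.2 and 79.0 CPM in stimulated DKO and 60.0 and 50.8 CPM in stimulated WT cells (0.43 ± 0.17, edgeR adjusted p = 0.127). In all 3 both DKO libraries were above both WT libraries, and the log2 fold changes of Ung and Nbn were near their untreated values of 0.40 and 0.35. Nhej1 had 4.17 and 3.52 CPM in stimulated DKO and 5.74 and 4.96 CPM in stimulated WT cells. Its groups did not overlap, and its log2 fold change of -0.52 ± 0.28 did not pass (edgeR adjusted p = 0.244). Chek1 had 0.24 ± 0.17 and Atr -0.01 ± 0.25, neither past the threshold.

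**Figure D3:**
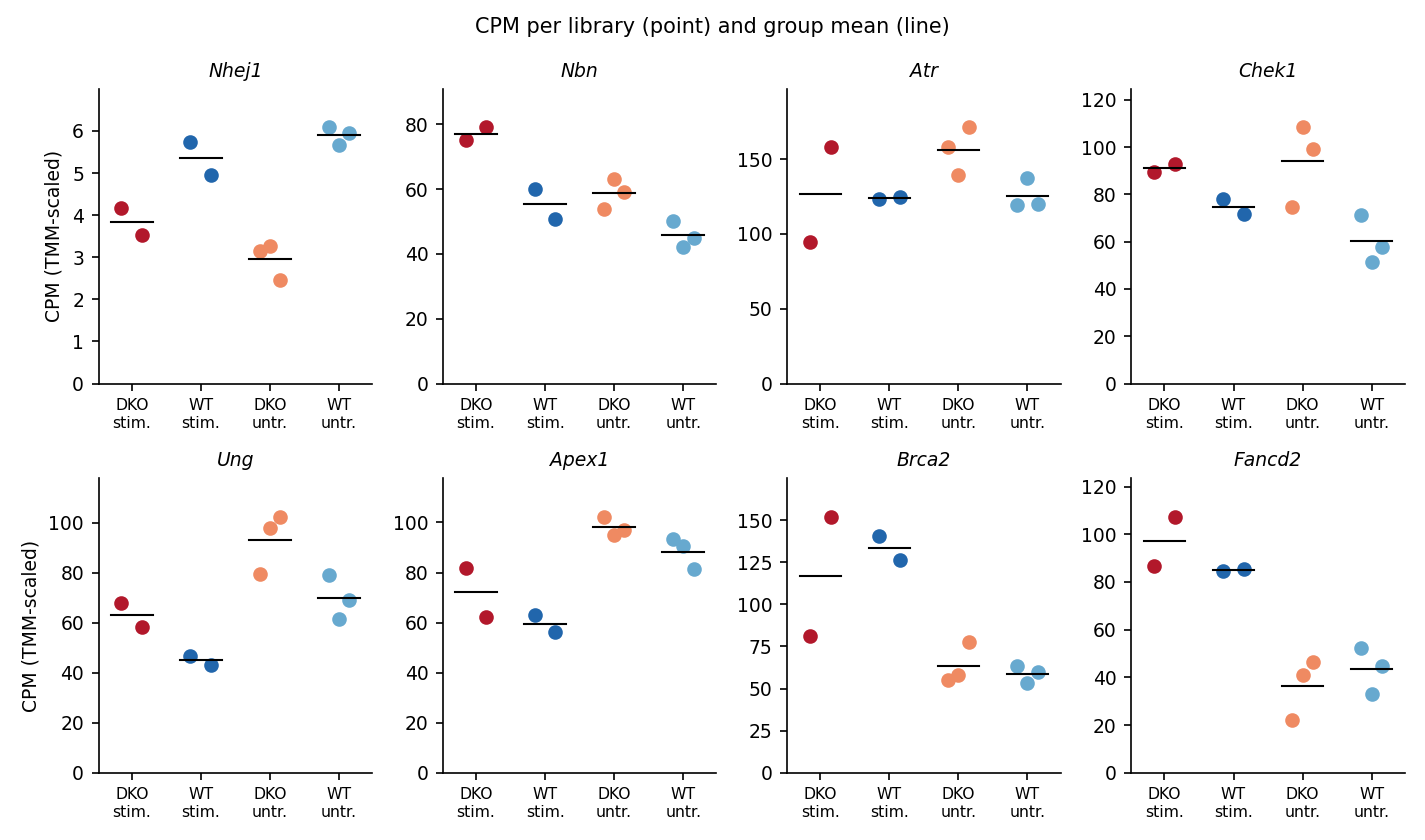
CPM per library (y axis) of Nhej1, Nbn, Atr, Chek1, Ung, Apex1, Brca2 and Fancd2 in stimulated DKO, stimulated WT, untreated DKO and untreated WT cells, 1 point a library, with a line at the group mean. Nhej1 lies between 2.46 and 3.28 CPM in untreated DKO and between 5.67 and 6.08 CPM in untreated WT cells, and Brca2 and Fancd2 lie higher in stimulated than in untreated cells of both genotypes.

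The pair of stimulated DKO libraries disagreed on long genes. The CPM ratio of stimulated DKO number 1 to number 2 was lower the longer the coding sequence across the 29 genes (Spearman rho -0.89, a description, since the genes share both libraries), and the same ratio of the WT pair had a rho of -0.27. All 9 genes with a coding sequence over 5 kb (Atm, Atr, Brca1, Brca2, Mdc1, Polq, Prkdc, Rif1 and Trp53bp1) were lower in DKO number 1 than in number 2, with ratios from 0.284 to 0.82 and a median of 0.596. Of the 8 genes under 2 kb, 7 were higher in DKO number 1, with a median of 1.17. Atm was the extreme case, with 57.5 and 203 CPM in stimulated DKO and 157 and 174 CPM in stimulated WT cells. Rif1 had 100.3 and 208 CPM in stimulated DKO and 180.2 and 174 CPM in stimulated WT cells, so for both genes the DKO libraries lay on either side of WT.

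**Figure D4:**
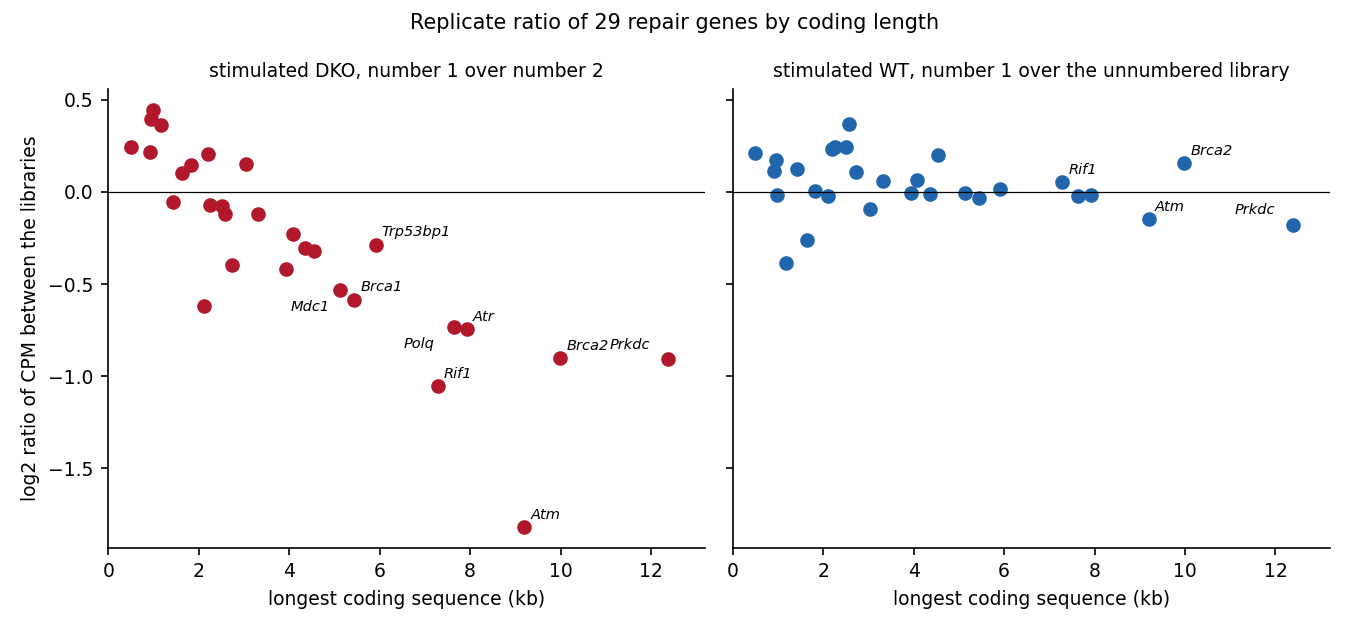
Log2 CPM ratio of 1 replicate to the other (y axis) against the longest coding sequence in kb (x axis) for the 29 genes, in stimulated DKO cells (left, number 1 over number 2) and stimulated WT cells (right, number 1 over the unnumbered library). The DKO points run down to the ratio of 0.284 of Atm, and the WT points over 5 kb stay between ratios of 0.883 and 1.11.

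The same gradient was seen over all genes with an annotated coding sequence and a mean of at least 10 CPM over the 10 libraries. The median ratio of stimulated DKO number 1 to number 2 was 1.23 for 2668 genes with coding sequences under 1 kb and 0.677 for 233 genes of 6 kb or more, against 1.03 and 1.01 for the WT pair. Set against the stimulated WT mean, the long genes had a median ratio of 0.639 in DKO number 1 and 0.965 in DKO number 2. Among untreated libraries the widest departures for the long genes were 0.831 for DKO number 2 (over the WT mean) and 1.17 for WT number 2 (over the other WT libraries). The choice of stimulated DKO library changed the comparison with WT. Without DKO number 1, 5 of 29 genes passed (17.2%, beside 22.9% of all genes), all higher in DKO cells (Atr, Brca1, Exo1, Msh6 and Nbn), with Atr at a log2 fold change of 0.35 (edgeR adjusted p = 0.0339). Without DKO number 2, 16 of 29 passed (55.2%, beside 39.5% of all genes), 5 higher in DKO cells (Apex1, Exo1, Nbn, Ung and Xrcc6) and 11 lower, among them all the genes over 5 kb except Brca1. Exo1 and Nbn passed as higher in both of these fits, in each of which the lone DKO library is taken to vary like the WT pair.

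Stimulated cells differed from untreated cells in 12 (DKO) or 13 (WT) of the 29 genes. In both genotypes the recombination genes Brca1, Brca2 and Fancd2, the checkpoint kinase gene Chek2, and Parp1 and Polq were higher in stimulated than in untreated cells, and the uracil repair genes Ung and Apex1 were lower. In DKO cells 12 of 29 genes passed (8 higher and 4 lower), or 41.4%, beside 33% of all 15006 genes tested (16.2% higher and 16.8% lower). In WT cells 13 of 29 passed (9 higher and 4 lower), or 44.8%, beside 40.6% of all genes (17.8% higher and 22.8% lower). Stimulated and untreated cells did not overlap for 15 of 29 genes in DKO, beside 54% of all genes, and for 21 of 29 in WT, beside 66.9%. Both genotypes shared 8 of these calls in the same direction, 66.7% of the DKO calls and 61.5% of the WT calls. The share of calls common to both genotypes was not computed over all genes, so this sharing cannot be set against a background. The median log2 fold change of the 29 genes was 0.14 in DKO and 0.22 in WT cells, beside -0.01 and -0.02 over all genes. The libraries from female cells were all untreated. Without them 7 of 29 genes passed in DKO cells, or 24.1%, beside 27.5% of all genes, and Lig4, Mdc1, Nbn, Parp1 and Polq lost their calls. In WT cells 12 of 29 passed, or 41.4%, beside 36.7%, and Xrcc5 lost its call.

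**Figure D5:**
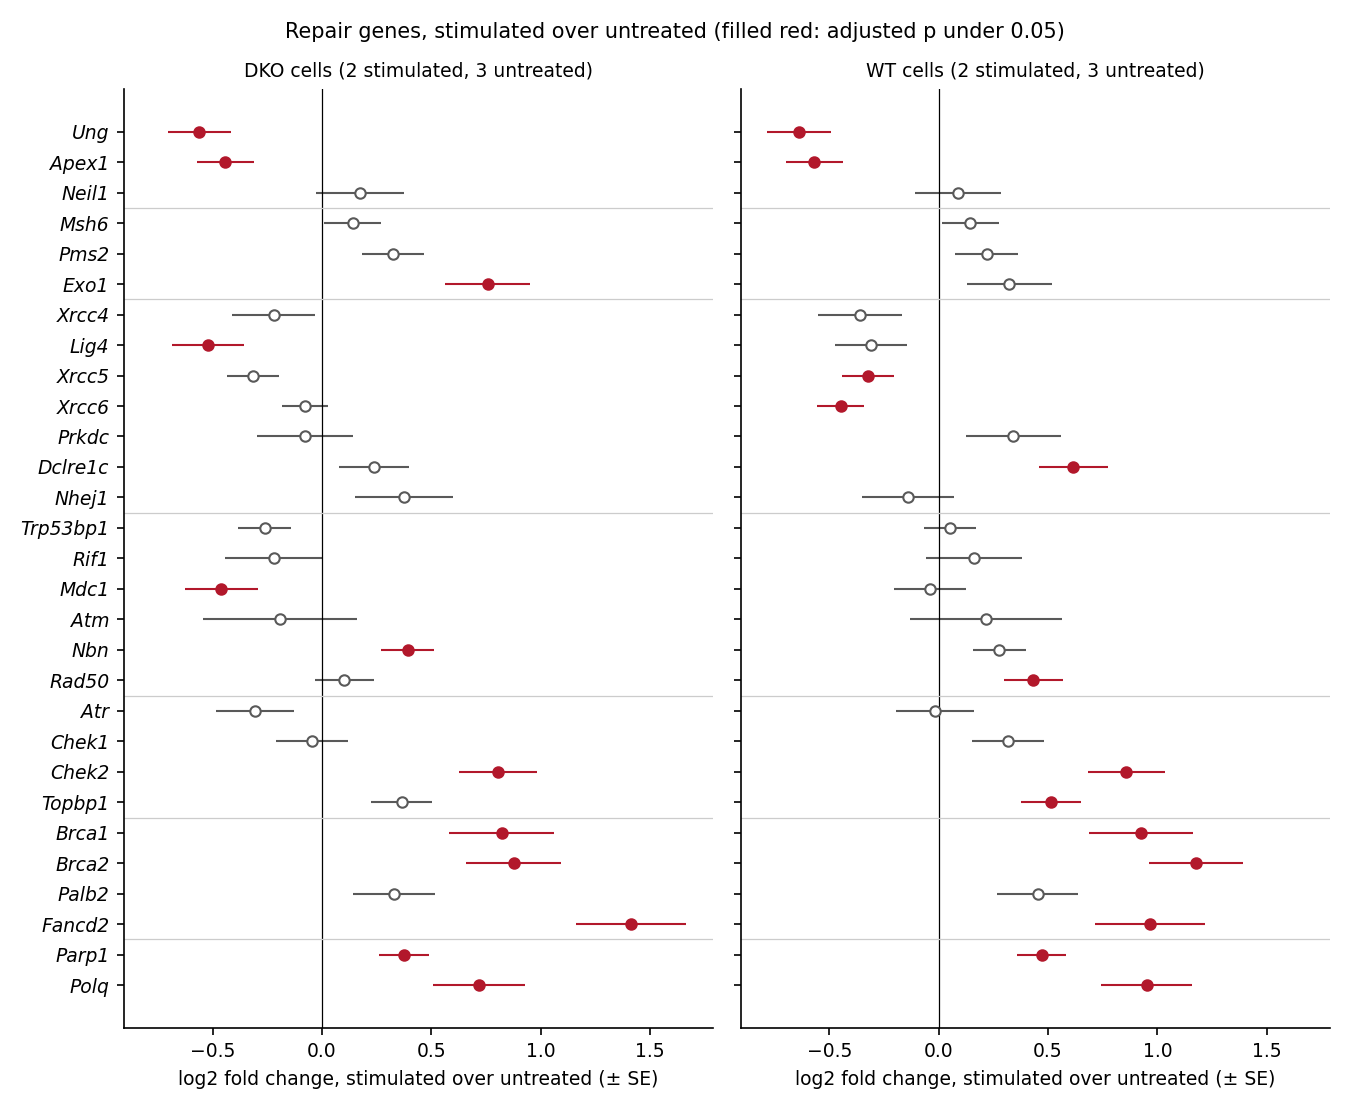
Log2 fold change of stimulated over untreated cells (x axis, ± SE) for the 29 genes (y axis, grouped by role), in DKO cells (left) and WT cells (right), each with 2 stimulated and 3 untreated libraries. Filled red points passed an adjusted p of 0.05: 12 of 29 in DKO and 13 of 29 in WT cells, with Ung and Apex1 to the left and Brca1, Brca2 and Fancd2 to the right of 0 in both.

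Brca2 and Fancd2 had the highest estimated log2 fold changes of the 29 in both genotypes. Brca2 in DKO and Fancd2 in WT cells did not differ from Brca1 beyond their standard errors. The Brca2 value in DKO cells ran from 0.35 to 1.27 with 1 library left out. Brca2, which loads the recombinase on single-stranded DNA, had 81.4 and 152 CPM in stimulated DKO and 54.9, 58.0 and 77.7 CPM in untreated DKO cells (0.88 ± 0.22, edgeR adjusted p = 0.00834). In WT cells Brca2 had 140.3 and 126 CPM when stimulated and 63.5, 53.2 and 60.0 CPM when untreated (1.18 ± 0.22, edgeR adjusted p = 0.000994). Fancd2 had 86.8 and 107 CPM in stimulated DKO and 22.1, 40.9 and 46.3 CPM in untreated DKO cells (1.41 ± 0.25, edgeR adjusted p = 0.00107). Every stimulated library was above every untreated library of its genotype in both genes. In WT cells Fancd2 had 84.5 and 85.3 CPM when stimulated and 52.5, 32.8 and 44.9 CPM when untreated (0.97 ± 0.25, edgeR adjusted p = 0.00832). Brca1, which acts with Palb2 and Brca2 in recombination, had 94.2 and 141 CPM in stimulated DKO and 99.4 and 102 CPM in stimulated WT cells, again above every untreated library. It rose by 0.82 ± 0.24 in DKO and 0.93 ± 0.24 in WT cells on the log2 scale (edgeR adjusted p = 0.0192 and 0.00819). Palb2 did not pass, with 0.33 ± 0.19 in DKO and 0.45 ± 0.19 in WT cells, although its libraries did not overlap between states in either genotype.

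Chek2 had 28.8 and 26.9 CPM in stimulated DKO and 11.9, 19.3 and 16.7 CPM in untreated DKO cells (0.80 ± 0.18, edgeR adjusted p = 0.00461). In WT cells it had 30.8 and 37.0 CPM when stimulated and 19.8, 16.96 and 19.4 CPM when untreated (0.86 ± 0.18, edgeR adjusted p = 0.00212). Both genotypes thus had every stimulated library above every untreated one. Topbp1 rose in WT cells (0.51 ± 0.14, edgeR adjusted p = 0.0105) and had 0.36 ± 0.14 in DKO cells, not past the threshold (edgeR adjusted p = 0.0623). Chek1 and Atr, both higher in untreated DKO than untreated WT cells, did not pass between states, with -0.05 ± 0.16 and -0.31 ± 0.18 in DKO and 0.31 ± 0.16 and -0.02 ± 0.18 in WT cells.

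Polq had 58.4 and 97.1 CPM in stimulated DKO and 37.4, 44.1 and 60.1 CPM in untreated DKO cells (0.72 ± 0.21, edgeR adjusted p = 0.0197), and stimulated DKO number 1 overlapped with untreated DKO number 3. In WT cells Polq had 82.7 and 84.1 CPM when stimulated and 46.2, 38.9 and 44.2 CPM when untreated, with no overlap (0.95 ± 0.21, edgeR adjusted p = 0.00319). Parp1 had 718 and 646 CPM in stimulated DKO and 480.4, 519 and 579.6 CPM in untreated DKO cells, and 618 and 659 CPM in stimulated WT and 455, 452 and 477 CPM in untreated WT cells. Without overlap between states, it rose by 0.37 ± 0.11 in DKO and 0.47 ± 0.11 in WT cells (edgeR adjusted p = 0.0238 and 0.0056). Of the mismatch repair genes, Exo1 rose in DKO cells, with 84.3 and 88.9 CPM when stimulated and 37.8, 59.0 and 56.8 CPM when untreated (0.76 ± 0.19, edgeR adjusted p = 0.00981). In WT cells Exo1 had 63.8 and 53.9 CPM when stimulated and 56.7, 37.4 and 46.8 CPM when untreated, an overlap of the 2 states (0.32 ± 0.20, edgeR adjusted p = 0.206). Msh6 did not pass in either genotype (0.14 ± 0.13 in DKO and 0.14 ± 0.13 in WT cells), nor did Pms2 (0.32 ± 0.14 in DKO and 0.22 ± 0.14 in WT cells).

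Ung and Apex1, which remove uracil and cut the site it leaves, both fell with stimulation in DKO and WT cells. Ung had 67.9 and 58.5 CPM in stimulated DKO and 79.4, 97.9 and 102 CPM in untreated DKO cells (-0.56 ± 0.14, edgeR adjusted p = 0.00996). In WT cells Ung had 46.6 and 43.1 CPM when stimulated and 79.2, 61.4 and 69.1 CPM when untreated (-0.64 ± 0.14, edgeR adjusted p = 0.00387). Apex1 had 82.0 and 62.4 CPM in stimulated DKO and 102, 95.0 and 96.9 CPM in untreated DKO cells (-0.44 ± 0.13, edgeR adjusted p = 0.0204). Every stimulated library lay below every untreated library of its genotype for both genes. In WT cells Apex1 had 63.0 and 56.0 CPM when stimulated and 93.2, 90.5 and 81.2 CPM when untreated (-0.57 ± 0.13, edgeR adjusted p = 0.00417). Neil1 did not pass, with 0.17 ± 0.20 in DKO and 0.09 ± 0.20 in WT cells.

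Of the 7 end-joining genes, 1 passed in DKO cells (Lig4, lower) and 3 in WT cells (Xrcc5 and Xrcc6, lower, and Dclre1c, higher). These are 14.3%, beside 33% of all genes, in DKO and 42.9%, beside 40.6%, in WT cells. Both Ku genes fell in WT cells, Xrcc6 by 0.45 ± 0.11 and Xrcc5 by 0.32 ± 0.12 on the log2 scale (edgeR adjusted p = 0.00528 and 0.0453). In DKO cells they had -0.08 ± 0.11 and -0.31 ± 0.12 and did not pass. Lig4 fell in DKO cells, with 8.75 and 11.5 CPM when stimulated and 15.9, 13.4 and 14.3 CPM when untreated (-0.52 ± 0.17, edgeR adjusted p = 0.0289), and had -0.31 ± 0.16 in WT cells. Dclre1c, whose product opens hairpin ends, rose in WT cells, with 54.2 and 55.1 CPM when stimulated and 32.7, 38.7 and 35.7 CPM when untreated (0.62 ± 0.16, edgeR adjusted p = 0.00788). In DKO cells its stimulated libraries, at 32.4 and 49.9 CPM, overlapped with the untreated ones, at 36.1, 32.3 and 36.3 CPM (0.24 ± 0.16, edgeR adjusted p = 0.282). Xrcc4, Prkdc and Nhej1 did not pass in either genotype. Xrcc4 had -0.22 ± 0.19 in DKO and -0.36 ± 0.19 in WT cells, Prkdc -0.08 ± 0.22 in DKO and 0.34 ± 0.22 in WT cells, and Nhej1 0.37 ± 0.22 in DKO and -0.14 ± 0.21 in WT cells.

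Of the 6 break-response genes, Nbn and Mdc1 passed in DKO cells (33.3%, beside 33% of all genes) and Rad50 in WT cells (16.7%, beside 40.6%). Nbn rose in DKO cells (0.39 ± 0.12, edgeR adjusted p = 0.0258) and had 0.28 ± 0.12 in WT cells (edgeR adjusted p = 0.088). Rad50 rose in WT cells, with 141 and 141 CPM when stimulated and 102, 105 and 106 CPM when untreated (0.43 ± 0.13, edgeR adjusted p = 0.0212) and had 0.10 ± 0.14 in DKO cells (edgeR adjusted p = 0.602). Mdc1 fell in DKO cells by the narrowest margin, with 75.7 and 109.6 CPM when stimulated and 139, 107 and 136 CPM when untreated, which overlapped (-0.46 ± 0.17, edgeR adjusted p = 0.0495). Mdc1 had -0.04 ± 0.16 in WT cells. Trp53bp1 (-0.26 ± 0.12 in DKO and 0.05 ± 0.12 in WT cells), Rif1 (-0.22 ± 0.22 in DKO and 0.16 ± 0.22 in WT cells) and Atm (0.22 ± 0.35 in WT cells) passed in neither genotype with all 10 libraries. Atm had -0.19 ± 0.35 in DKO cells with both stimulated libraries and 0.46 (edgeR adjusted p = 0.0494) without stimulated DKO number 1.

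Chek2, Exo1 and Fancd2 kept their DKO calls, and Brca2, Chek2, Polq and Xrcc6 their WT calls, whichever of the 10 libraries was left out. Without stimulated DKO number 2, the DKO calls of Apex1, Brca1, Brca2, Nbn, Polq and Ung were lost (edgeR adjusted p between 0.0633 and 0.289). Without stimulated DKO number 1, those of Lig4, Mdc1 and Parp1 were lost (0.0624 to 0.329). Calls were also gained. Without stimulated DKO number 1, Dclre1c (0.52, edgeR adjusted p = 0.00809), Topbp1 (0.52, 0.0163) and Atm passed in DKO cells as higher and Xrcc5 (-0.41, 0.0330) as lower, 13 of 29 genes in all (44.8%, beside 32.3% of all genes). Without number 2, Atm (-1.37), Atr (-0.73), Prkdc (-0.60), Rif1 (-0.84) and Trp53bp1 (-0.42) passed as lower (edgeR adjusted p between 0.000408 and 0.0305), 11 of 29 in all (37.9%, beside 28% of all genes). Xrcc5 passed in DKO cells without stimulated WT number 1 too (0.04997), and in WT cells Palb2 passed without untreated DKO number 1 (0.0265), and Chek1, Nbn and Palb2 without untreated WT number 1 (0.0392 to 0.0447). Without untreated DKO number 1, the DKO calls of Apex1, Brca1, Lig4, Mdc1, Nbn, Parp1 and Polq were lost (0.0542 to 0.133), without number 2 those of Parp1 and Polq (0.0544 and 0.0554), and without number 3 those of Lig4, Mdc1 and Nbn (0.0591 to 0.127). In WT cells the unnumbered stimulated library carried the calls of Apex1, Brca1, Dclre1c, Fancd2, Parp1, Rad50, Ung and Xrcc5 (0.0519 to 0.335 without it), and stimulated WT number 1 those of Rad50, Topbp1 and Xrcc5 (0.0527 to 0.1002). Mdc1 in DKO and Xrcc5 in WT cells also lost their calls without other single libraries (0.0555 to 0.0720 and 0.0568 to 0.128).

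The summed level of the 17 proliferation markers was higher in every stimulated than in every untreated library. It was 6361 and 6843 CPM in stimulated DKO cells, against 2821 to 4021 CPM in untreated DKO cells, and 6282 and 5838 CPM in stimulated WT cells, against 2765 to 4062 CPM in untreated WT cells. Of the 17 markers 11 were called higher in DKO cells (64.7%, beside 16.2% of all genes) and 10 in WT cells (58.8%, beside 17.8%), and none lower. The part of cell cycling in the values of the repair genes was not tested.

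Promoters of the 29 genes were searched for the E2F-type motifs TTTCCCGC, TTTGGCGC, TTTCGCGC and TTTGCCGC on both strands, in RefSeq windows from 250 bases before to 50 bases after each gene's start. E2F factors bind such motifs at genes of the cell cycle. Of the 29 genes 23 had a window, and 6 of these 23 (26.1%) held a motif: Brca2, Chek2, Mdc1, Msh6, Topbp1 and Xrcc6. Over all 32851 windows, of genes expressed or not, 744 (2.26%) held one. The 2.26% is a share of windows and the 26.1% a share of genes. The 6 did not share a response, since Brca2, Chek2 and Topbp1 were higher and Xrcc6 lower in stimulated WT cells. Msh6 passed in no edgeR comparison with all libraries and the filter on low counts. A match is a description of the letters, not of binding. Nbn, Prkdc, Rif1, Rad50, Fancd2 and Exo1 had no window.

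Windows of 4 genes with small p between stimulated and untreated WT cells are shown 5′ to 3′, 2 with a motif (in capitals) and 2 without, in build GRCm38.p6: Brca2 (chr5:150522371-150522670, plus strand, motif read on the opposite strand, 168 bases before the start), Chek2 (chr5:110839733-110840032, plus strand, motif on the opposite strand, 152 bases before the start), Polq (chr16:37011536-37011835, plus strand) and Ung (chr5:114130185-114130484, plus strand).
Brca2: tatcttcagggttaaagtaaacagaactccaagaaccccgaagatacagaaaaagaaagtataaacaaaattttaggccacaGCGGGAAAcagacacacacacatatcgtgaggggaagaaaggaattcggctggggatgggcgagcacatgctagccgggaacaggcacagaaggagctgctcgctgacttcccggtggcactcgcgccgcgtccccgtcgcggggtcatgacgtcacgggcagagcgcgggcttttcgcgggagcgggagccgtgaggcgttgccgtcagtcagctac
Chek2: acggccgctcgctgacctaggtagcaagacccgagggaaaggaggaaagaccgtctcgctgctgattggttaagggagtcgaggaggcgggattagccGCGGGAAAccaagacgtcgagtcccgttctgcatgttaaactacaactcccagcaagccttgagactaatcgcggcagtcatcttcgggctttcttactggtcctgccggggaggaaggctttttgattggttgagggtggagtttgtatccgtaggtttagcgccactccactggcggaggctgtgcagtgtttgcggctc
Polq: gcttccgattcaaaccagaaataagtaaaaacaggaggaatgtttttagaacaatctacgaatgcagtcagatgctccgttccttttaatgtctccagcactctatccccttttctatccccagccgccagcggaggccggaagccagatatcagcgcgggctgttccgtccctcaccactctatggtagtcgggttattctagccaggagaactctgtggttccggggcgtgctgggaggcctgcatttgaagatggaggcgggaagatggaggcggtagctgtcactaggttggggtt
Ung: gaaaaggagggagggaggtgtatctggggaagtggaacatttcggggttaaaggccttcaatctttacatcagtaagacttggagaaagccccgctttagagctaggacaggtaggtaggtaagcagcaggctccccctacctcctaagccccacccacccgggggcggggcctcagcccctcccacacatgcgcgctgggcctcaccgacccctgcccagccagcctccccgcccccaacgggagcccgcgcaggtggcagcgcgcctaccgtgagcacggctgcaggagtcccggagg

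The difference between genotypes in the response to stimulation was tested as an interaction. None of the 29 genes passed in edgeR or DESeq2, beside 0.14% of all 15006 genes (21 genes, 0.133% higher and 0.00666% lower, edgeR), and 1 of 29 had an unadjusted p under 0.05. That was Xrcc6, with 0.37 ± 0.15 on the log2 scale (edgeR adjusted p = 0.366). Xrcc6 had 98.9 and 89.4 CPM in stimulated DKO and 93.4, 102 and 103 CPM in untreated DKO cells, and 72.3 and 72.1 CPM in stimulated WT and 105, 91.9 and 98.8 CPM in untreated WT cells. Its libraries overlapped between states in DKO cells and not in WT cells. Genes that passed in 1 genotype alone, such as Exo1 (0.43 ± 0.28), Dclre1c (-0.38 ± 0.23) or Rad50 (-0.33 ± 0.19), were therefore not shown to respond differently. The interaction estimates of the 29 had standard errors of 0.15 to 0.50. Without stimulated DKO number 2, 5 genes passed as lower (Atm, Atr, Dclre1c, Prkdc and Rif1), or 17.2%, beside 7.87% of all genes in that fit (4.28% higher and 3.59% lower), and with it none did.

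Of 103 further genes of the same pathways, 100 were tested. Between untreated DKO and WT cells 8 of these 100 were higher and 7 lower, or 15%, beside 19.5% of all genes (8.81% higher and 10.6% lower). Among base excision genes Smug1, another uracil glycosylase, rose (0.42 ± 0.11, edgeR adjusted p = 0.0331) and Hmces, which shields abasic sites, fell (-0.92 ± 0.25, edgeR adjusted p = 0.0358), 2 of 17. In the end-joining list, 1 of 10 rose and 1 fell: Paxx, a Ku-binding factor related to the product of Nhej1 (0.43 ± 0.13, edgeR adjusted p = 0.0452), and Parp3 (-0.84 ± 0.20, edgeR adjusted p = 0.0198). The break-response list had 3 higher and 3 lower of 19, led by the ubiquitin ligase gene Rnf8 (0.64 ± 0.12, edgeR adjusted p = 0.00992) and Uimc1, which reads its mark (0.47 ± 0.09, edgeR adjusted p = 0.0112). Slx4, a nuclease scaffold, was the 1 of 24 recombination and crosslink genes that passed (0.42 ± 0.10, edgeR adjusted p = 0.0227), and none of 14 checkpoint genes did. Of 11 deamination and translesion genes 2 rose and 1 fell. The elongation factor gene Supt5 fell (-0.57 ± 0.07, edgeR adjusted p = 0.00209) and the polymerase gene Polh rose (0.34 ± 0.09, edgeR adjusted p = 0.0343).

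Between stimulated DKO and WT cells 2 of the 100 were higher and 4 lower, or 6%, beside 11.3% of all genes (5.09% higher and 6.17% lower). Mbd4, a glycosylase of mismatched thymine and uracil, had 22.1 and 27.0 CPM in stimulated DKO cells, against 58.1 and 80.0 CPM in stimulated WT cells (-1.53 ± 0.22, edgeR adjusted p = 0.00593). Both DKO libraries were below both WT libraries. The helicase gene Wrn fell (-0.85 ± 0.19, edgeR adjusted p = 0.026), as did the polymerase gene Poli (-0.66 ± 0.17, edgeR adjusted p = 0.041). Rnf8 was higher, as in untreated cells (0.89 ± 0.18, edgeR adjusted p = 0.0206), and Shld3, a shieldin subunit that protects ends, was also higher (0.90 ± 0.23, edgeR adjusted p = 0.0383).

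Stimulated over untreated, 32 of the 100 were higher and 10 lower in DKO cells. That is 42%, beside 33% of all genes (16.2% higher and 16.8% lower). In WT cells 24 were higher and 12 lower, or 36%, beside 40.6% of all genes (17.8% higher and 22.8% lower). The leading gene of each list in DKO cells was Neil3 (2.48 ± 0.33) for base excision, Msh3 (0.57 ± 0.15) for mismatch repair, Tdp1 (-0.54 ± 0.13) for end joining, Uimc1 (-1.08 ± 0.13) for break response, Clspn (1.47 ± 0.24) for the checkpoint, Bard1, the partner of Brca1 (1.34 ± 0.25), for recombination, and Supt5 (0.53 ± 0.11) for deamination and translesion. In WT cells these were Mbd4 (1.66 ± 0.21), Mlh3 (0.46 ± 0.14), Wrn (0.86 ± 0.13), Uimc1 (-1.15 ± 0.13), Wee1 (0.79 ± 0.14), Fancm (0.85 ± 0.17) and Poli (0.47 ± 0.13). No gene of the 100 passed the interaction test in edgeR, beside 0.14% of all genes, and 6 had an unadjusted p under 0.05.

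The 29 genes lie on 14 chromosomes. Of the 29, 16 overlap another annotated gene, and since the strand setting of the counting is not given, their counts may hold reads of the neighbour (for example Apex1 with Pip4p1, Msh6 with Fbxo11, Xrcc6 with Desi1, Dclre1c with Suv39h2, and Pms2 with Rsph10b). Nhej1, Chek1, Chek2, Ung and Polq overlap none. Nhej1 lies at chr1:75006298-75101844 on the minus strand (GRCm39). It has 1586 bases of exon in the untreated and stimulated tables and 1118 in the table of the additional WT libraries. Its values there are of another gene model and entered only the alternative that counts these libraries as WT.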

How the data were processed

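Poly(A) RNA was sequenced per the labels. Tools named in the submitters' processing notes are FastQC 0.10.1 for quality, cutadapt 1.9.1 for trimming, HISAT2 2.2.1 for alignment (build GRCm39) and HTSeq 0.6.1 for counting; neither the strand setting nor the annotation release is stated. The deposited counts per gene were tested, and the deposited FPKM values served for levels between genes only; 3 columns of FPKM, of the additional and the unnumbered WT libraries, were not used. The quasi-likelihood test of edgeR 4.0.16 (R 4.3.3, two-sided, TMM scaling, filterByExpr with a minimum count of 10 and total of 15) was run on the counts, with p-values adjusted by Benjamini-Hochberg over all genes tested, and called below 0.05. Genotypes were compared within the untreated (6 libraries) and within the stimulated table (4 libraries), and states and their interaction in 1 fit over 10 libraries. Standard errors are the absolute log2 fold change over the square root of F. CPM shown are TMM-scaled over the 10 libraries (also in marker sums and overlaps), except for the percentages of Hnrnpa1 and Hnrnpa2b1, which rest on CPM without TMM, and coding lengths are the longest coding sequence per gene of GENCODE vM21.

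Other settings tried were DESeq2 1.42.0, RLE scaling, all genes with a count, 1 fit over 10 libraries, the additional WT libraries as WT, a replicate block, each library left out, and the libraries from female cells left out. Members and lists were chosen with earlier results of these data known. All 29 members are named. Of other pathway genes, at most the 2 with the smallest p past the threshold per list and genotype comparison are named, and 1 per list between states. A further pathway gene that this rule names is not reported here. Scripts were tested on simulated data.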

Additional observations from a re-analysis of the deposited data

How the results depend on the processing

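Of 126 counts of calls under alternatives, 88 stayed within 1.5 times the count reported. Of 1827 values of members 1692 stayed called or stayed uncalled, 72 lost their call, 61 gained one and 2 reversed. Among the 1692, 111 uncalled values had another sign. The calls between untreated DKO and WT cells held in 11 (Nhej1), 8 (Chek1), 7 (Nbn) and 6 (Atr) of 13 alternatives. DKO against WT in stimulated cells called 1625 genes, 3429 in 1 fit over 10 libraries (3 members: Nbn, Ung and Xrcc6), 2847 without a filter and 576 to 5977 with 1 library left out (0 to 16 members). In untreated cells it called 2638 genes, 319 with the additional WT libraries as WT (0 members) and 923 to 2779 with 1 library left out (1 to 5 members), and 3421 genes and 10 members without the libraries from female cells. Stimulated against untreated cells called 4952 genes in DKO (3965 to 5074 with 1 library left out, 5 to 13 members). In WT cells the same comparison called 6097 genes (3557 to 7031, 5 to 15 members). Leaving out the libraries from female cells was an alternative chosen after seeing the data for this comparison. It called 7 members in DKO cells (24.1%, beside 27.5% of all genes) and 12 in WT cells (41.4%, beside 36.7%). The interaction called 21 genes, 174 with DESeq2, 491 without a filter, 62 without the libraries from female cells and 1 to 1244 with 1 library left out (0 to 5 members). The reversed values were those of Atm between states in DKO cells (-1.37 to 0.46 with 1 library left out) and of Atr between genotypes in stimulated cells (-0.44 to 0.35). The cause was not tested.

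With the replicate number as a block, 786 genes and 0 of 29 members passed in untreated cells. Deviations of DKO and WT libraries of the same number correlated at -0.353, -0.351 and 0.139, and not every library correlated best with its own number. The highest correlation, 0.44, joined DKO number 1 and WT number 2, the libraries from female cells. With 3 libraries a group these values cannot decide whether the numbers mark pairs. No paired analysis was possible for the stimulated cells, because the unnumbered library leaves 1 shared number.

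Counts of 37 to 121 stand behind Nhej1 in untreated cells, and 2 libraries a group limit the stimulated comparison to standard errors of 0.16 or more.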
